A study of Mus musculus with 2 samples.

Results

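The surface molecules of the immune checkpoint and tumor necrosis factor (TNF) families were followed in single endothelial cells (ECs) from normal mouse mammary glands and from mammary tumors. They are Tnfrsf9, Cd274, Tnfsf10, Fas, Cd40, Tnfrsf1a and Tnfrsf1b, 7 genes of the 14976 that both libraries list. The 7 genes were chosen with measured values of these same cells in view, namely their levels in tumor ECs (TECs), normal ECs (NECs) and cancer-like cells and their detection together with Cxcl9 and Top2a, so those values are a description and carry no test.

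The study compared ECs sorted as CD45-/CD31+ from pooled normal mammary glands with ECs sorted the same way from pooled orthotopic tumors of E0771, an established C57BL/6 breast carcinoma line placed into the mammary fat of the host. Each condition is 1 droplet library, so there are 2 libraries and no replicate, and cells are not replicates of a condition. The glands came from C57BL/6 mice of 6 to 8 weeks, while the labels used here give no age for the tumor mice. The normal library carries some labels that name TECs and E0771, but its title and the series' design give normal mammary glands, and it was read that way. The labels name no treatment or genotype for either group and no strain for the tumor mice, and both groups went through the same digestion and sort.

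A cell was called endothelial when its unique molecular identifiers (UMIs, one per captured transcript) of Cdh5 plus Pecam1 numbered at least 1 and exceeded those of Rhox5 plus Hmga2 plus Krt8. It was called cancer-like, in the tumor library only, when the latter sum was at least 3 and the higher one. Cells with under 200 genes, 10% or more mitochondrial UMIs or any Ptprc UMI (Ptprc encodes CD45) were removed first. That left 5409 NECs of 9047 barcodes, 262 TECs of 704 barcodes and 185 cancer-like cells in the tumor library despite the CD31 sort. The median depth was 3071 UMIs in NECs, 16950 in TECs and 62538 in cancer-like cells, and 3 barcodes occurred in both libraries. Levels are therefore counts per 1000000 UMIs (CPM), summed over each cell group, with 95% intervals that cover counting error only.

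The labels were checked against defining markers. All 14 endothelial markers were detected in NECs and in TECs, at 10942 and 9526 CPM in sum. In cancer-like cells the 12 of them that the rule did not use stood at 1.46% of their TEC level, singly from 0.131% (Cldn5) to 6.90% (Eng), with Erg at 0 UMIs. Cancer-like cells also held fibroblast markers at 289 CPM, in 165 of the 185 cells, against 7.30 CPM in TECs. Their mural markers were at 178 CPM against 53.0 CPM, and their listed epithelial markers at 1.60 CPM from 19 UMIs. The name cancer-like therefore stands for the rule only, and the identity of these cells was not tested. The NEC library also held secretory transcripts of the salivary type. Its 9 listed genes, such as Bpifa2 and Smr3a, summed to 3327 CPM in NECs and gave at least 1 UMI in 5193 of the 5409 NECs, against 0 UMIs in TECs, where 2 of the genes are listed. Whether some of these cells came from a gland other than the labelled one cannot be told apart here, so every NEC level and every ratio to NECs rests on the label. T and NK cell markers summed to 48 UMIs in TECs, in 37 of the 262 cells, or 10.3 CPM against 4.77 CPM in NECs. In TECs they came from 4 of 15 genes, Cd3d, Trbc2, Nkg7 and Lck, with Cd3e, Cd3g, Cd2, Cd4, Cd8a and Trac among those at 0. The 1 marker of this list that passed the filter on low counts described below was at least 2-fold higher in TECs than in NECs (log2 ratio 1.82). B cell markers summed to 8 UMIs and myeloid or dendritic markers to 103.

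TNF receptors share a cysteine-rich extracellular fold and are engaged by trimeric ligands, mostly on the surface of neighboring cells. Some, such as Fas and the TRAIL receptor, carry a death domain that can start apoptosis, others, such as 4-1BB and CD40, recruit TRAF adaptors and activate NF-kB, and TNFR1 can do both. PD-L1, encoded by Cd274, is a checkpoint ligand that restrains T cells through PD-1. Endothelium is a place where these molecules meet circulating leukocytes, and interferons and TNF are known inducers of several of them.

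On GRCm38, Tnfrsf9 (4-1BB, ENSMUSG00000028965.13) lies on chromosome 4 from 150914562 to 150946102, Cd274 (PD-L1) on chromosome 19 from 29367455 to 29388095 and Tnfsf10 (TRAIL) on chromosome 3 from 27317028 to 27342427, all on the plus strand. Fas lies on chromosome 19 from 34290666 to 34327772, Cd40 on chromosome 2 from 165055627 to 165072948 and Tnfrsf1a (TNFR1) on chromosome 6 from 125349362 to 125362484, also on the plus strand, and Tnfrsf1b (TNFR2) on the minus strand of chromosome 4 from 145213463 to 145246870. All 7 are protein-coding. Promoters of Tnfrsf9, Cd274, Tnfsf10 and Fas are shown because these genes carry the contrasts between cell groups and with Cxcl9, an interferon-induced gene, that are described further on. They come from RefSeq (GRCm38.p6), run 5′ to 3′ from 250 bases before to 50 bases after the start, and have matches to a searched motif in capitals.

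Tnfrsf9, downstream of its 2 listed starts, chr4:150927749-150928048, plus strand: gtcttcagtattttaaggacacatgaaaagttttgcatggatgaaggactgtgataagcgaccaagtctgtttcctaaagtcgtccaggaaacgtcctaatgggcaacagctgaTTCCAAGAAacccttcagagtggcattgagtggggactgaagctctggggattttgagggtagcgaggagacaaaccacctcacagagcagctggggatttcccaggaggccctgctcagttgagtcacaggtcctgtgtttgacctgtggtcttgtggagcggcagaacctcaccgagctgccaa
Cd274, chr19:29367188-29367487, plus strand: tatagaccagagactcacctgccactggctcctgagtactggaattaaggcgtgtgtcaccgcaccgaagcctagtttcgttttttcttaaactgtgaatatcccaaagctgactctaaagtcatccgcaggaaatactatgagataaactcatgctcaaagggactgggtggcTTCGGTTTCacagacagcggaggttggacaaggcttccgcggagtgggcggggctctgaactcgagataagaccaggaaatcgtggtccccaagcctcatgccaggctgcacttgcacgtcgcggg
Tnfsf10, chr3:27316827-27317126, plus strand: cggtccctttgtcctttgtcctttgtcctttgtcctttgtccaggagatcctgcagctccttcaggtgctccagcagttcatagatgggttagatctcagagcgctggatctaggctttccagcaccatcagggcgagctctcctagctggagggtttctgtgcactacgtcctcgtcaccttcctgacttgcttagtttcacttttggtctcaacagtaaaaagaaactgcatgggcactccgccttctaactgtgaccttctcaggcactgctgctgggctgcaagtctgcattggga
Fas, chr19:34290409-34290708, plus strand: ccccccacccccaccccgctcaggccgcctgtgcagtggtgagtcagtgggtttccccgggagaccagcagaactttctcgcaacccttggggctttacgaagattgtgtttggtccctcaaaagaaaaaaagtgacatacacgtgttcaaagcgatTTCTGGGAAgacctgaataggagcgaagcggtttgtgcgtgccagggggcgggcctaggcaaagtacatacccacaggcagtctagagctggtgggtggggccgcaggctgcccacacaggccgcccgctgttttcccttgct

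Both strands were searched for a gamma-activated site (TTCNNNGAA), the core of an interferon-stimulated response element (GAAANNGAA) and a kappa-B core (GGANTTTCC). Of all 32851 promoters of that length, 8.30%, 8.56% and 1.25% held each. The capitals in Tnfrsf9 and Fas are gamma-activated sites that begin 136 and 93 bases before the start, and those in Cd274 are a response element core on the other strand, 76 bases before the start. Tnfsf10 and the upstream Tnfrsf9 promoter held none of the 3 motifs. Not printed here, the Tnfrsf1a promoter held 1 gamma-activated site and the Tnfrsf1b promoter 1 gamma-activated site and 1 response element core. These matches did not overlap each other. These are letter matches to 3 fixed patterns only, and no Cd40 promoter is shown. Other forms of the same sites, the kappa-B site included, were not searched, so lower case does not mean that a site is absent.

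Of the 7 genes, 2 were at least 2-fold higher in TECs than in NECs (Tnfrsf9 and Cd40), 2 were at least 2-fold lower (Fas and Tnfsf10) and 3 lay between (Cd274, Tnfrsf1a and Tnfrsf1b). All 7 passed the filter on low counts, which asked for 10 UMIs in both groups together and 5 CPM in one. Among the 10362 genes that passed, 10.8% were at least 2-fold higher and 21.3% at least 2-fold lower, with a median log2 ratio of -0.16, and nothing is read from the comparison because the 7 were chosen on this contrast. Nearest to the 2-fold line were Tnfsf10, just past it at a log2 ratio of -1.11, and Cd274, short of it at 0.46. The NECs carried more transcripts of mural, fibroblast and epithelial cells, whereas T and NK cell markers were higher in TECs, as given above. Mural markers summed to 917 CPM in NECs and 53.0 CPM in TECs, with 8 of 10 at least 2-fold lower in TECs, fibroblast markers to 113 and 7.30 CPM, and epithelial markers to 173 and 39.9 CPM. A mural-like cluster of 178 cells is among the NECs. Without it and a shallow TEC cluster, a choice made after seeing the data that left 205 TECs and 5231 NECs, the log2 ratios were 6.40 for Tnfrsf9, 2.47 for Cd40, -3.35 for Fas and -1.14 for Tnfsf10.

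**Figure D1:**
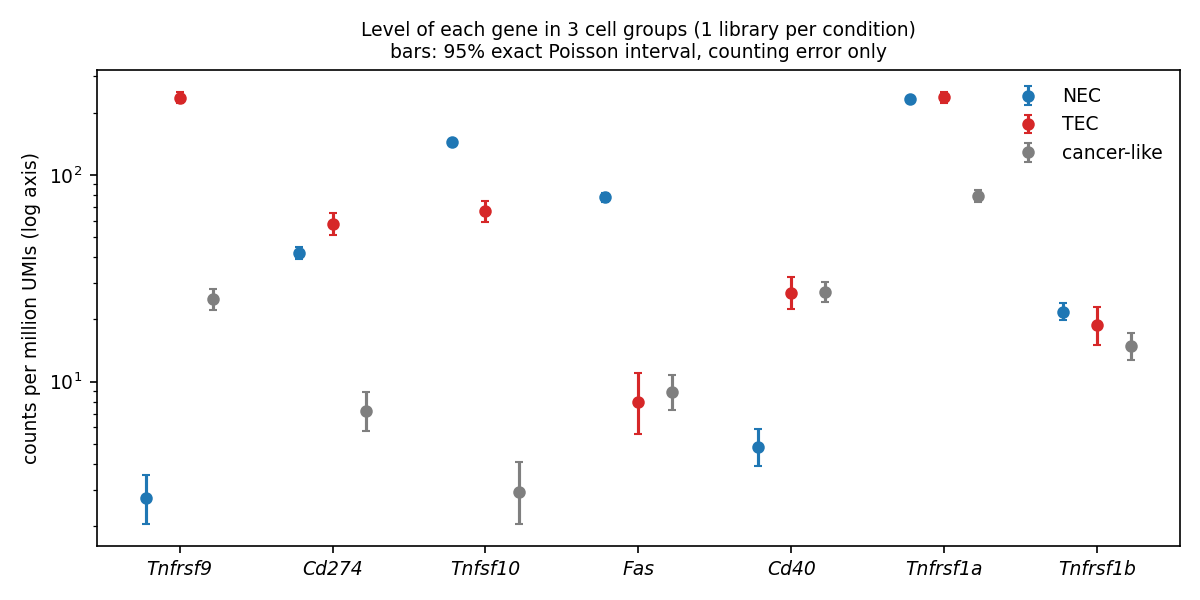
CPM (log axis) of the 7 genes in NECs, TECs and cancer-like cells, with 95% exact Poisson intervals. Tnfrsf9 stood at 2.73, 236 and 25.02 CPM in the 3 groups, whereas Fas was high in NECs alone, at 77.8 CPM.

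Tnfrsf9 encodes 4-1BB, a costimulatory receptor best known from activated T cells. It was counted 55 times in 5409 NECs and 1100 times in 262 TECs. These are 2.73 CPM (2.06 to 3.55) and 236 CPM (222 to 251), an 86.5-fold higher level in TECs, with a log2 ratio of 6.43 (6.04 to 6.85). At least 1 UMI was present in 0.869% of NECs and 57.3% of TECs. When every cell was thinned at random to 1900 UMIs, which left out 1136 NECs, 22 TECs and 1 cancer-like cell as too shallow, the shares were 0.445% (0.268 to 0.694%) and 25.8% (20.4 to 31.9%), so the groups remained apart at equal depth. The 1464 cells of the normal library in neither class, where salivary genes made up 134485 CPM, gave 0.518 CPM of Tnfrsf9 and a thinned share of 0.243%. Of the 262 TECs, 150 held a Tnfrsf9 UMI. The TEC with the most held 57 UMIs, or 5.18% of the total, and 75 TECs held 5 or more, whereas 1 NEC did. The 9 cells of the tumor library removed for Ptprc held 51.2 CPM (31.7 to 78.3), below the TEC level. When cells with a UMI of any T, NK, B, myeloid or dendritic marker were also removed, which left 159 TECs and 5008 NECs, the log2 ratio was 6.07.

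Tnfsf9, the ligand of 4-1BB, ran the other way. It was counted 635 times in NECs (31.5 CPM, 29.1 to 34.1) and 1 time in TECs (0.215 CPM, 0.00544 to 1.196), a 147-fold lower level with a log2 ratio of -7.20 and a wide interval of -12.50 to -4.71. Within NECs it was uneven. The highest cluster, NEC 5, whose leading genes include the heat shock and immediate early genes Hspa1a, Hspa1b, Egr1 and Atf3, held 176 CPM, and the mural-like cluster held 110 CPM, whereas 1 UMI was found in the 271 cells of the venous-like cluster NEC 7, where Tnfrsf9 was highest among NECs. Receptor and ligand of this pair were thus on opposite sides of the TEC to NEC contrast. Tnfsf9 was not confined to NECs in the normal library. The 1464 cells in neither class held 22.8 CPM (20.5 to 25.3). At 1900 UMIs per cell it was found in 4.53% of them and 3.14% of NECs.

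Cd274, the checkpoint ligand PD-L1, was at 42.04 CPM in NECs (39.3 to 45.0) and 57.8 CPM in TECs (51.1 to 65.1). The log2 ratio was 0.46 (0.25 to 0.66), higher in TECs but short of 2-fold. The thinned share was 6.93% of NECs (6.18 to 7.73%) and 9.58% of TECs (6.17 to 14.0%), and these intervals overlap. In TECs the transcript was concentrated, with 68.0% of its UMIs in the top 10% of cells and up to 25 in a single cell. Pdcd1, which encodes the receptor PD-1, had 0 UMIs in TECs and cancer-like cells and is not listed for the normal library, and the same held for Cd80, another partner of PD-L1, except for 1 UMI in a cancer-like cell.

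Tnfsf10 encodes TRAIL, a death ligand. It was lower in TECs, at 66.6 CPM (59.4 to 74.4) against 144 CPM (139 to 149) in NECs, a 2.16-fold difference with a log2 ratio of -1.11 (-1.28 to -0.94). The share of cells with a UMI went against the level as deposited, at 45.8% of TECs and 34.7% of NECs, and followed it at equal depth, at 11.2% (7.55 to 15.9%) and 22.9% (21.7 to 24.2%). Its death receptor Tnfrsf10b was lower in TECs as well, at 32.4 against 55.0 CPM (log2 ratio -0.76, -1.02 to -0.52).

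Fas, the death receptor of FasL, had the lowest TEC to NEC ratio of the 7. It was counted 1568 times in NECs, or 77.8 CPM (74.0 to 81.8), and 37 times in TECs, or 7.95 CPM (5.59 to 11.0). The level in TECs was 9.80-fold lower, with a log2 ratio of -3.29 (-3.80 to -2.82), and the thinned shares were 14.4% of NECs (13.4 to 15.48%) and 0.833% of TECs (0.101 to 2.98%). In no TEC did Fas exceed 5 UMIs, although TECs were the deeper cells. Fasl, its ligand, had 0 UMIs in TECs and cancer-like cells and is not listed for the normal library. In the 9 tumor library cells removed for Ptprc, Fasl had 2 UMIs.

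Cd40, a costimulatory receptor engaged by CD40L, was at 4.81 CPM in NECs (3.90 to 5.87) and 26.8 CPM in TECs (22.3 to 32.0), a 5.57-fold higher level with a log2 ratio of 2.48 (2.08 to 2.88). The ratio was 1.71 without cells holding an immune marker UMI, 1.90 as a mean over cells and 1.54 at 1900 UMIs per cell. It remained rare at equal depth, in 0.983% of NECs (0.709 to 1.33%) and 2.92% of TECs (1.18 to 5.92%), and those thinned counts were 42 cells and 7 cells. Cd40lg had 0 UMIs in TECs and cancer-like cells and is not listed for the normal library.

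The TNF receptors differed least. Tnfrsf1a, the widely expressed receptor TNFR1, stood at 231 CPM in NECs (225 to 238) and 237 CPM in TECs (224 to 252), with a log2 ratio of 0.04 (-0.06 to 0.13), and Tnfrsf1b, the inducible receptor TNFR2, at 21.8 CPM (19.8 to 23.9) and 18.7 CPM (15.0 to 23.0), with a log2 ratio of -0.22 (-0.57 to 0.11). Both intervals include 0 and lie within 2-fold. The ligand Tnf had 91 UMIs in NECs (4.52 CPM) and 16 in TECs (3.44 CPM), and Lta had 1 and 0. Ltb, which encodes the partner of lymphotoxin alpha in a shared trimer, was at 6.06 CPM in NECs and 0.429 CPM in TECs from 2 UMIs, with a log2 ratio of -3.82 (-6.88 to -1.93). In NECs its highest level was in cluster NEC 12, at 94.8 CPM from 47 UMIs.

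**Figure D2:**
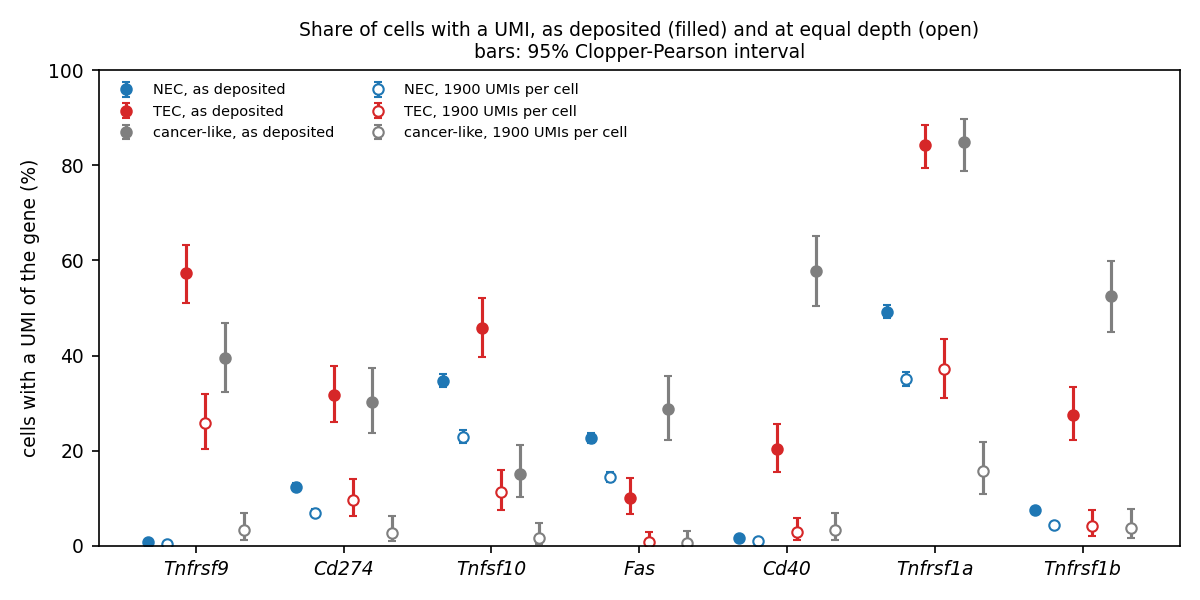
Share of cells (%) with at least 1 UMI of each gene in NECs, TECs and cancer-like cells, as deposited (filled) and after thinning to 1900 UMIs per cell (open), with 95% Clopper-Pearson intervals. At equal depth Tnfrsf9 was found in 25.8% of TECs and 3.26% of cancer-like cells, and Fas in 14.4% of NECs and 0.833% of TECs.

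Cancer-like cells and TECs shared 1 library, so capture and free RNA were common to both. Of the 7 genes, 4 were at least 2-fold lower in cancer-like cells than in TECs (Tnfsf10, Tnfrsf9, Cd274 and Tnfrsf1a), 0 were at least 2-fold higher and 3 lay between (Fas, Cd40 and Tnfrsf1b). Among all 10142 genes that passed the filter, 21.4% were at least 2-fold lower and 17.4% at least 2-fold higher, and again nothing is read from this because the contrast chose the genes. Tnfsf10 was at 2.94 CPM (2.05 to 4.09) in cancer-like cells, 22.6-fold lower than in TECs, and Cd274 was at 7.22 CPM (5.78 to 8.92), 8.00-fold lower. Tnfrsf9 was at 25.02 CPM (22.3 to 28.0), 9.44-fold lower, and Tnfrsf1a at 79.1 CPM (74.1 to 84.3), 3.002-fold lower. Set beside the 1.46% of the summed endothelial markers, they were at 4.42% (Tnfsf10), 10.6% (Tnfrsf9), 12.5% (Cd274) and 33.3% (Tnfrsf1a) of the TEC level, whereas Cxcl9 was at 0.697%. Single endothelial markers reached 6.90% (Eng), so Tnfsf10 lay within their range, and Tnfrsf9, Cd274 and Tnfrsf1a lay above it.

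Fas, Cd40 and Tnfrsf1b were at similar levels in both groups of tumor cells. Fas was at 8.90 CPM (7.29 to 10.8) in cancer-like cells, with a log2 ratio to TECs of 0.16 (-0.39 to 0.75), Cd40 at 27.1 CPM (24.2 to 30.2), with a ratio of 0.02 (-0.29 to 0.32), and Tnfrsf1b at 14.9 CPM (12.8 to 17.2), with a ratio of -0.33 (-0.71 to 0.06). The 3 intervals include 0 and none reaches 2-fold. The raw shares of cells with a UMI were higher in cancer-like cells for all 3, for example 57.8% against 20.2% for Cd40, but at 1900 UMIs per cell Cd40 was in 3.26% (1.21 to 6.96%) and 2.92%. Tnf, the ligand of TNFR1 and TNFR2, was higher in cancer-like cells, at 14.8 CPM against 3.44 (log2 ratio 2.10, 1.37 to 2.94), and Tnfrsf10b was lower, at 11.1 against 32.4 CPM (-1.55, -1.90 to -1.20).

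Tnfrsf9 was detected in 73 of the 185 cancer-like cells (39.5%), 19 of them with 5 or more UMIs. One cell held 55 of its 298 UMIs, and the top 10% of cells held 67.8%. The level was 21.5 CPM (18.2 to 25.3) in the 125 cancer-like cells with no Cdh5 or Pecam1 UMI and 29.6 CPM (25.1 to 34.7) in the 60 with 1 or more. Among the 243 TECs with no UMI of Rhox5, Hmga2 or Krt8 it was 240 CPM (225 to 255), close to that of all TECs. At 1900 UMIs per cell, 72.3% of cancer-like cells had none of the 7 genes detected, against 34.2% of TECs and 37.5% of NECs. Scrublet called 0 doublets in either library, and no doublets were removed. Whether the caller suited these cells was not tested, so doublets may remain.

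**Figure D3:**
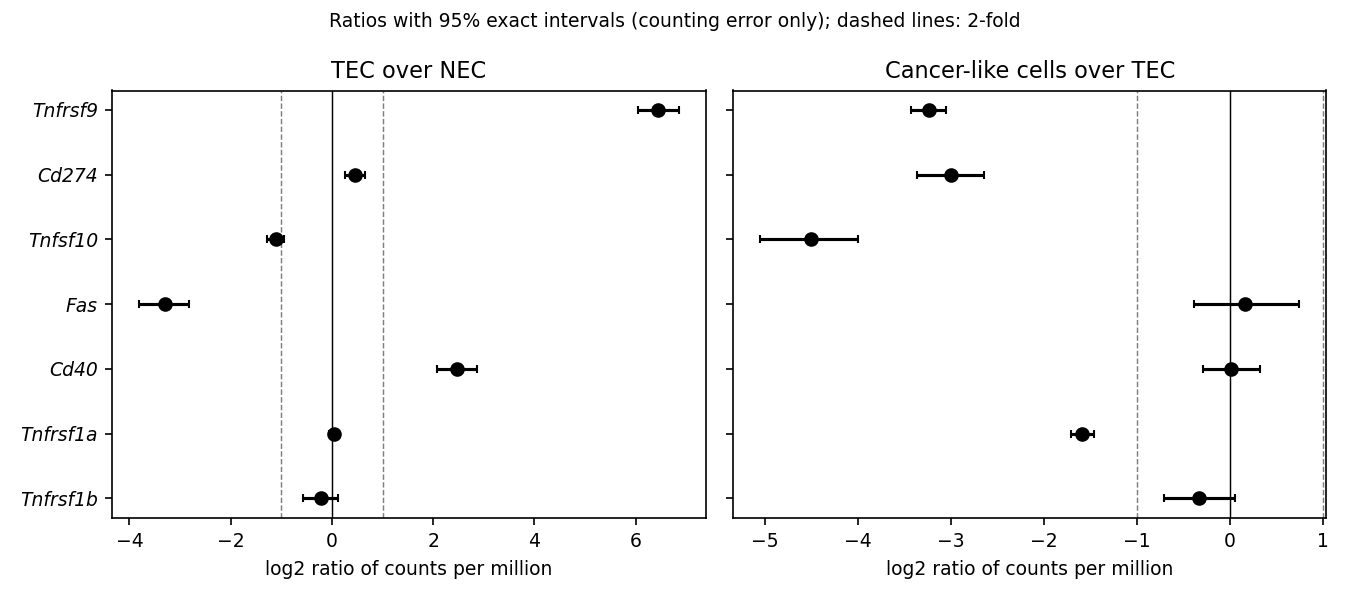
Log2 ratios of CPM with 95% exact intervals for TECs over NECs (left) and cancer-like cells over TECs (right), with dashed lines at 2-fold. Tnfrsf9 lies at 6.43 on the left and -3.24 on the right, and Fas at -3.29 and 0.16.

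Cxcl9, an interferon-induced chemokine that attracts CXCR3+ T cells, was detected in 224 TECs and not in 38. In the shallow TEC cluster left out above, 68.4% of the 57 cells held it, against 83.9 to 94.2% in the other TEC clusters. The positive TECs were deeper, with a median of 18056.5 UMIs against 7514.5, so levels are again in CPM. Of the 7 genes, 3 were at least 2-fold higher in Cxcl9-positive TECs (Cd40, Tnfsf10 and Cd274) and 0 at least 2-fold lower. Of all 9810 tested genes, 671 were at least 2-fold higher and 744 at least 2-fold lower, or 14.4% in all. Nothing is read from this, because the 7 were chosen with their detection beside Cxcl9 in view. Tnfsf10 was at 71.6 CPM in positive TECs and 8.15 CPM in negative ones, from 307 and 3 UMIs, with a log2 ratio of 3.14 (1.57 to 5.42). Cd40 was at 28.9 and 2.72 CPM, from 124 and 1 UMIs, with a log2 ratio of 3.41 (0.91 to 8.73). Cd274 was at 60.4 and 27.2 CPM, with a log2 ratio of 1.15 (0.25 to 2.23). Each of these values in the negative cells rests on at most 10 UMIs, and the intervals are wide. The Tnfsf10 ratio was 1.22 and the Cd40 ratio 1.82 when 5 or more Cxcl9 UMIs were asked for, a choice made after seeing the data, and at 1900 UMIs per cell the Cd40 ratio was 1.39 (-1.65 to 6.91). The Cd274 ratio was under 2-fold at 1900 UMIs per cell (0.45), without cells holding an immune marker UMI (0.63) and with 5 or more Cxcl9 UMIs asked for (0.74). It was also just under 2-fold without the shallow TEC cluster. The markers of other cell types were uneven too. Of 5 mural markers that passed the filter, 4 were at least 2-fold lower in positive TECs and 1 was higher, and the 1 T or NK and the 1 myeloid or dendritic marker that passed were at least 2-fold higher (log2 ratios 1.92 and 1.41), and their part in the result was not tested.

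At 10000 UMIs per cell, with 82 shallower TECs left out, Tnfsf10 was present in 42.4% of the 158 TECs that kept a Cxcl9 UMI and 9.09% of the 22 others. For Cd40 the shares were 20.3% and 4.55%, and for Cd274 27.8% and 22.7%. For Tnfrsf9 they were 61.4% and 40.9%. Its level as deposited had a log2 ratio of 0.57 (0.20 to 0.97), which turned to -0.27 when levels were averaged over cells. Fas (-0.04, -1.71 to 2.31) and Tnfrsf1b (0.49, -0.79 to 2.15) had intervals that include 0, and Tnfrsf1a had a log2 ratio of -0.42 (-0.70 to -0.13). At equal depth the Tnfrsf1a interval included 0, with 0.30 (-0.30 to 0.93) at 1900 UMIs per cell and -0.16 (-0.55 to 0.26) at 10000.

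In NECs, 856 cells held a Cxcl9 UMI and 4553 did not, at like depths (medians of 3268 and 3043 UMIs). None of the 5 genes that passed the filter (Tnfrsf9 and Cd40 were below 5 CPM on both sides) differed by 2-fold, a count of 0 beside 6.3% of all genes. Cd274 was higher in the positive cells, at 57.7 against 38.5 CPM (log2 ratio 0.58, 0.36 to 0.81), Fas was lower, at 51.6 against 83.9 CPM (-0.70, -0.93 to -0.48), and so was Tnfrsf1b, at 14.4 against 23.5 CPM (-0.71, -1.15 to -0.30). Tnfsf10 had an interval that includes 0 (-0.13, -0.28 to 0.00). Of 15 interferon-induced markers, 0 were at least 2-fold higher in positive NECs and 0 lower. Of the 18 other interferon-gamma response genes that passed the filter, 2 were higher and 0 lower. Vessel type markers differed between these NECs. In positive NECs, 11 of 12 arterial and 6 of 10 mural markers were at least 2-fold lower, and 4 of 8 HEV markers and 14 of the 15 mitotic markers that passed were higher. Their part in the result was not tested. In cancer-like cells 41 held a Cxcl9 UMI and 144 did not, at medians of 89972 and 53569 UMIs. Fas was the 1 gene at least 2-fold higher in the positive ones, at 14.7 against 6.45 CPM, and Tnfrsf9 the 1 gene at least 2-fold lower, at 9.32 against 31.7 CPM, beside 1.39% of all genes past 2-fold. The endothelial markers moved as well. Of the 7 that passed the filter, 4 were at least 2-fold higher in the positive cancer-like cells and 0 lower (median log2 ratio 1.54). The checkpoint gene Cd200 had 28 UMIs against 1, with 27 of them in 1 cell. Their part in the result was not tested.

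Top2a marks cycling cells. It was detected in 53 TECs and not in 209, at medians of 24348 and 14992 UMIs. Cd274 was at least 2-fold lower in Top2a-positive TECs, at 24.0 against 71.3 CPM (log2 ratio -1.57, -2.15 to -1.03), and Fas at least 2-fold higher, at 12.8 against 6.01 CPM from 17 and 20 UMIs (1.09, 0.06 to 2.09). These are 2 of 7 genes, beside 11.5% of all genes. Tnfsf10 was lower, at 42.1 against 76.4 CPM (-0.86, -1.31 to -0.44). Its ratio was -0.90 (-1.85 to -0.07) at 10000 UMIs per cell and 1.05 (-0.92 to 2.57) at 1900, where the interval includes 0. Tnfrsf9 was level in both, at 235 and 237 CPM (-0.01, -0.20 to 0.18), and so was detected in cycling and other TECs alike. At 10000 UMIs per cell the Cd274 ratio was -0.60 (-1.56 to 0.25), so its difference was not distinguishable from counting error there. The Fas ratio dropped under 2-fold without cells holding an immune marker UMI (0.93).

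In NECs, 84 cells held a Top2a UMI, at a median of 6611 UMIs against 3054 in the others. Fas was 2.06-fold lower in the positive cells, at 38.4 against 79.3 CPM (log2 ratio -1.05, -1.64 to -0.51), and Tnfrsf9 was past 2-fold on 4 UMIs alone (1.06, -0.87 to 2.51), which makes 2 of 7 genes beside 18.5% of all genes. At 1900 UMIs per cell the Fas ratio was -1.03 (-2.91 to 0.34), from 4 UMIs in the positive cells, and the interval included 0. In cancer-like cells, 134 with Top2a and 51 without, Tnfrsf9 was the 1 gene past 2-fold, lower at 19.5 against 51.0 CPM (-1.39, -1.74 to -1.03), beside 5.51% of all genes. The median depths were 77624.5 and 28343 UMIs. The negative cells held 106 Tnfrsf9 UMIs, and the side of the 1 cell with 55 was not determined. Cd40 reached 29.7 against 14.9 CPM (0.99, 0.46 to 1.58). At 10000 UMIs per cell the ratio was -1.64 (-2.78 to -0.61) for Tnfrsf9 and 0.37 (-0.44 to 1.21) for Cd40.

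**Figure D4:**
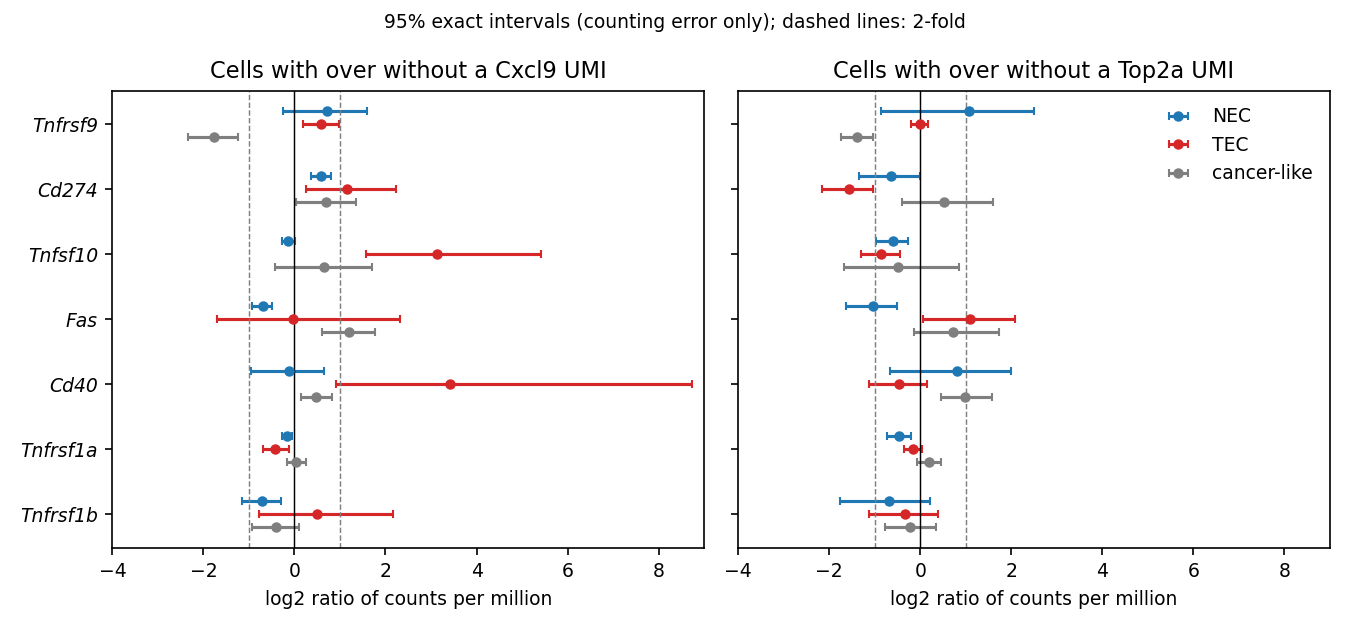
Log2 ratios of CPM between cells with and without a Cxcl9 UMI (left) and a Top2a UMI (right) in NECs, TECs and cancer-like cells, with 95% exact intervals and dashed lines at 2-fold. Tnfsf10 and Cd40 lie at 3.14 and 3.41 in TECs on the left, and Cd274 at -1.57 in TECs on the right.

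NECs and TECs were clustered separately, with the 7 genes, Cxcl9, Cxcl10 and Top2a left out of the genes used. TECs formed 4 clusters. One of 103 cells was IFN-like (Rsad2, Ifit3b and other interferon-induced markers), one of 56 mitotic-like, one of 46 tip-like (Pgf, Adm) and one of 57 unnamed, since 0 markers of any list marked it and its cells were shallow, with a median of 2198 UMIs. Tnfrsf9 was highest in the tip-like cluster, at 408 CPM (370 to 449), with a log2 ratio of 1.03 (0.82 to 1.24) over the next. The other 3 lay between 176 and 200 CPM, each next to a neighbor from which it did not differ beyond counting error. The IFN-like cluster was the lowest of the 4.

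Cd274, Tnfsf10 and Cd40 had the IFN-like cluster at the top. Cd274 reached 117 CPM there (101 to 133) and 22.5, 20.5 and 5.43 CPM in the mitotic-like, tip-like and unnamed clusters, and Cd274 itself was among the 10 leading genes of the IFN-like cluster. Tnfsf10 reached 119 CPM (103 to 136) and at most 38.0 CPM in the others. Cd40 reached 41.6 CPM (32.7 to 52.2), 23.7 CPM in the mitotic-like and 9.75 CPM in the tip-like cluster, a descending order in which each step exceeded counting error. Tnfrsf1a was also highest in the IFN-like cluster, at 280 CPM (256 to 306), over 190 to 223 CPM elsewhere. For Fas (2 to 22 UMIs a cluster) and Tnfrsf1b (1 to 42 UMIs a cluster) no neighbors in the order differed beyond counting error. The ends of the Fas order lay further apart. They were at 13.4 CPM (8.38 to 20.2) in the mitotic-like and 1.95 CPM (0.236 to 7.05) in the tip-like cluster, the latter from 2 UMIs.

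**Figure D5:**
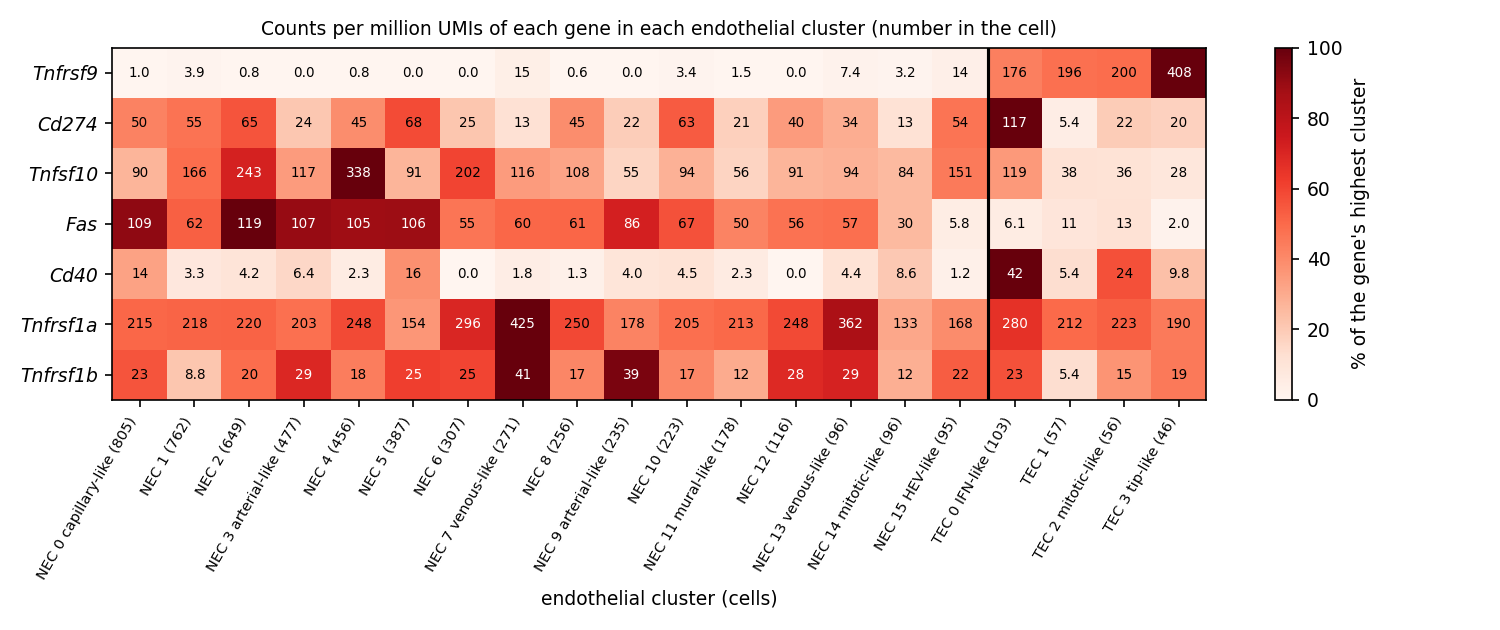
CPM of each gene (number in each field) in the 16 NEC and 4 TEC clusters, with cell numbers in parentheses and color as the percent of the gene's highest cluster. Tnfrsf9 is highest in the tip-like TEC cluster (408 CPM), Cd274 and Cd40 in the IFN-like TEC cluster (117 and 41.6 CPM), and Fas and Tnfsf10 in NEC clusters.

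NECs formed 16 clusters, of which 8 could be named from their markers and 8 could not. NEC 1, with capillary markers, stayed unnamed because the salivary genes Dcpp1, Smr3a and Bpifa2 were among its leading genes. Within NECs, Tnfrsf9 was highest in the venous-like cluster NEC 7, at 15.2 CPM (8.87 to 24.4) from 17 of the 55 UMIs, and in the cluster like high endothelial venules (HEV-like), at 13.9 CPM (7.17 to 24.2). It had 0 UMIs in both arterial-like clusters. Even the highest of these was under the lowest TEC cluster, at 176 CPM. Cd274 ranged from 12.8 CPM in the mitotic-like cluster to 67.7 CPM in NEC 5.

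Tnfsf10 was highest in NEC 4, an unnamed cluster led by Meis2 and Plscr2, at 338 CPM (307 to 371), and in NEC 2, at 243 CPM (224 to 262), and lowest in the arterial-like cluster NEC 9, at 54.6 CPM. Fas was broad, at 29.9 to 119 CPM in 15 clusters, and stood at 5.78 CPM (1.88 to 13.5) in the HEV-like cluster, near the 7.95 CPM of TECs. Cd40 was at most 15.9 CPM, in NEC 5, where the interferon-induced markers Ifit1 and Iigp1 were at least 2-fold higher than in other NECs. Tnfrsf1a and Tnfrsf1b shared their highest cluster, the venous-like NEC 7, at 425 CPM (388 to 465) and 41.2 CPM (30.2 to 55.0). The second venous-like cluster, NEC 13, which the inflammatory genes Sele, Selp, Cd14, Il6 and Csf3 lead, was next for Tnfrsf1a, at 362 CPM (318 to 410).

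Likeness of pattern was measured by Pearson correlation of log2(CPM + 10) over 21 points, the 20 clusters and the cancer-like cells, among 6080 genes. The points share 2 libraries and differ in depth, so the values describe these cells only. Most like Tnfrsf9 were Chga (0.95), AA467197 (0.95) and Pkm (0.95), and most like Fas were Syne2 (0.96), Rasgrf2 (0.94) and Gstm1 (0.93). Cd274 was most like Ddx58 (0.82), Parp14 (0.77) and Herc6 (0.76), and Cd40 most like Usp18 (0.80), Capza1 (0.78) and Isg20 (0.77). Among these Ddx58, Parp14, Herc6, Usp18 and Isg20 are known as interferon-induced. Tnfsf10 was most like Chst15 (0.91), C130074G19Rik (0.90) and 9530082P21Rik (0.90), Tnfrsf1a most like Insr (0.83), Tmem159 (0.81) and Mmrn2 (0.80), and Tnfrsf1b most like Phc2 (0.79), Sfxn3 (0.79) and Sptlc2 (0.76).

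The neighboring pathway genes differed as follows between TECs and NECs. Of 24 other checkpoint molecules, 9 passed the filter, and 4 were at least 2-fold higher in TECs and 1 lower (median log2 ratio 0.38, beside -0.16 for all genes). Cd276 (B7-H3) was at 65.7 CPM in TECs and 1.44 CPM in NECs, a log2 ratio of 5.51 (4.96 to 6.12). Lgals9, which encodes galectin-9, had 2.01 (1.93 to 2.09), Ido1, the tryptophan-degrading enzyme, 1.94 (1.53 to 2.34), and Ceacam1 -2.80 (-3.19 to -2.43). Of 22 other TNF receptors, 10 passed, with 4 higher and 3 lower (median 0.51). Tnfrsf8 (CD30) had a log2 ratio of 5.04 (3.69 to 6.74) from 38 and 5 UMIs, and Tnfrsf23, a decoy receptor of TRAIL, was at 91.7 against 11.2 CPM (3.03, 2.79 to 3.27). Tnfrsf26 had 2.34 and Tnfrsf25, a death receptor, -2.85. Of 11 other TNF ligands 1 passed, and Tnfsf12 (TWEAK) was lower in TECs (-1.15, -1.38 to -0.93). Of 9 ligands, receptors and other partners of the 7 genes, 5 are listed in both libraries and 3 passed, with 0 higher and 2 lower (Tnfsf9 and Ltb). Ltb was included as the partner of lymphotoxin alpha.

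Of 25 signaling components of TNF receptors, all of which passed, 3 were higher in TECs and 5 lower (median -0.50), or 8 in all, beside 10.8% higher and 21.3% lower among all genes. Bid (1.80), which acts in apoptosis, was among the higher, and Map3k14 (-1.63) and Traf5 (-1.35), which act in NF-kB signaling, among the lower. Of 18 NF-kB target genes, 17 passed, and 2 were higher and 9 lower (median -1.12). Ccl2, a monocyte chemokine, had a log2 ratio of 3.07, and Sele, the endothelial selectin, had -2.93, Rel -2.31 and Cxcl1 -2.30. Of 20 interferon-gamma response genes, all of which passed, 12 were higher and 2 lower (median 1.16). Cxcl9 was at 2121 CPM in TECs and 152 CPM in NECs (3.80, 3.74 to 3.86), with Ciita at 3.53, Cxcl10 at 2.56 and Irf8 at 2.30. Of 17 mitotic genes, 16 were higher (median 2.37), Birc5 (3.96), Ccnb1 (3.71), Ccnb2 (3.62) and Cdk1 (3.15) the most.

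In cancer-like cells the same lists were lower than in TECs for checkpoint molecules (8 of 9 that passed, 0 higher), for other TNF receptors (5 of 7, 0 higher) and for interferon-gamma response genes (17 of 20, 0 higher), with medians of -3.43, -3.27 and -2.34 beside 0.04 for all genes. Cd200 (-7.03), Ido1 (-6.98, from 2 UMIs, -10.05 to -5.09), Ceacam1 (-5.72, from 3 UMIs, -8.04 to -4.11) and Nectin2 (-4.21) led the checkpoint list. Tnfrsf26 (-6.14, from 3 UMIs, -8.45 to -4.55) and Tnfrsf21 (-5.71, from 2 UMIs, -8.81 to -3.77) were among the receptors, with Tnfrsf8 at 0 UMIs against 38 in TECs. Of the NF-kB targets, 4 of 16 were lower, Vcam1 (-4.67) and Cx3cl1 (-4.25) first, and 2 were higher, among them Ccl2 (1.96). Among all genes 21.4% were lower and 17.4% higher. Of the signaling components, 7 of 25 were lower, Xiap (-2.63), Birc3 (-1.97) and Casp8 (-1.92) first, and 3 were higher.

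Between Cxcl9-positive and Cxcl9-negative TECs, 8 of 19 other interferon-gamma response genes were at least 2-fold higher and 0 lower (median 0.98, beside -0.07 for all genes). Cxcl10 (3.17) and Gbp2 (2.21) led them. Among all genes 14.4% were past 2-fold either way, and of the 7 genes 3 were higher, as given above. Ido1 had 99 UMIs in positive TECs and 0 in negative ones, at least 2.83-fold higher with the negative cells set at 3 UMIs. Between Top2a-positive and Top2a-negative TECs, 15 of 16 other mitotic genes were higher, with 11.5% of all genes past 2-fold either way. Of 20 interferon-gamma response genes, 2 were lower and 0 higher, a count near that share. These were Cxcl10 (-1.27) and Ciita (-1.002, -3.01 to 0.58), the latter with an interval that includes 0.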

How the data were processed

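Sorted ECs of the normal glands and of the tumors gave 1 droplet library of single-cell RNA each. The authors deposited raw UMI counts per gene and barcode, and the submitters' processing notes name Cell Ranger, Seurat and the build mm10, with versions not given in the sources used here. The libraries held 40914092 and 18980858 UMIs over 9047 and 704 barcodes. From these counts, cells were filtered and classed by the rule given above, and UMIs were summed per class in Python 3.11.15 (numpy 2.4.6, scipy 1.17.1, pandas 2.3.3). Intervals are at 95%, exact Poisson for CPM, Clopper-Pearson for shares and exact binomial, given the sum of both counts, for log2 ratios. They cover counting error only. With 1 library per condition no test was possible, and a gene was counted as higher or lower past 2-fold. A group at 0 UMIs was set at 3 UMIs over the group. Depth was equalised by thinning cells to 1900 UMIs, or to 10000 UMIs in the tumor library. Clusters were made in Seurat 5.3.0 (R 4.3.3) from 4000 variable genes, 20 components and a resolution of 0.8, and named X-like from 3 or more markers with at least 1 among the top 10 genes. Doublet scores came from Scrublet in scanpy 1.11.5. The interval code was checked on simulated data. Positions are from GENCODE and promoters from RefSeq, both on GRCm38, and 6 of the 7 genes had a promoter entry.

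The genes named are the 7, Cxcl9, Top2a, their ligands and receptors, up to 4 genes per other list with the largest ratio past 2-fold, the 3 genes most alike in pattern (at least 50 CPM somewhere) and markers. The 7 genes and all lists were chosen with earlier results of these data known.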

Additional observations from a re-analysis of the deposited data

Results flagged for a closer look

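The following pairs of cell groups differed in the direction of the same comparison, with each pair's counting intervals on opposite sides of 0, and the difference within a pair was not tested. The log2 ratio of Tnfrsf9 between cells with and without a Cxcl9 UMI was 0.57 in TECs, where it turned to -0.27 as a mean over cells, and -1.76 in cancer-like cells. In cancer-like cells 33 UMIs stood on the positive side and 265 on the other, of which 1 cell held 55. The same ratio for Fas was -0.70 in NECs and 1.19 in cancer-like cells. Of the 7 endothelial markers that passed the filter, 4 were at least 2-fold higher in the cancer-like cells with a Cxcl9 UMI, and 11 of 12 arterial markers lower in the NECs with one. Their part in either ratio was not tested. Between cells with and without a Top2a UMI, the log2 ratio of Fas was 1.09 in TECs, from 17 and 20 UMIs, and -1.05 in NECs, from 28 and 1540 UMIs. At 1900 UMIs per cell the interval of the NEC ratio included 0 (-1.03, -2.91 to 0.34).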

How the results depend on the processing

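Of 398 recomputed log2 ratios of the 7 genes in TECs and cancer-like cells, 363 stayed within the counting interval of the reported value, 35 left it and 0 reversed a called direction. The counts of genes past 2-fold were the same under all alternatives for TECs over NECs (2 higher, 2 lower) and for cancer-like cells over TECs (0 higher, 4 lower). For TECs over NECs, Cd40 ranged from 1.54 (1900 UMIs per cell) to 2.64, Fas from -4.28 to -3.20 and Cd274 from 0.16 to 0.82, and scaling by median ratios moved Tnfsf10 to -1.03.

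For Cxcl9 in TECs, the count of higher genes was 3. It became 2 without immune marker UMIs, at 1900 UMIs, without the shallow cluster and with at least 5 Cxcl9 UMIs, 4 under 5% mitochondrial UMIs, and was 3 under the others. The count of lower genes went from 0 to 1 with a mean over cells and to 1 at 1900 UMIs. At 1900 UMIs this gene was Fas, from 1 UMI on each side (-1.19, -7.49 to 5.10). Cd274 was 0.995 without the shallow cluster, Tnfrsf9 was -0.27 with a mean over cells, and Tnfsf10 was 1.22 when at least 5 Cxcl9 UMIs were asked for, the first and the last chosen after seeing the data. For Top2a in TECs, the count of higher genes was 1 and became 0 with at least 2 Cdh5 plus Pecam1 UMIs and no cancer-like UMI, 0 without immune marker UMIs, 0 with a mean over cells and 3 at 1900 UMIs. The count of lower genes was 1 and became 3 and 2 under the first pair of these. It became 2 with at least 2 Top2a UMIs and 0 at 10000 UMIs, both chosen after seeing the data. No Fas ratio could be given for Top2a at 1900 UMIs, where both sides were at or under 3 UMIs. The 3 higher genes there were Tnfsf10, Cd40 and Tnfrsf1b, from 4, 1 and 2 UMIs in 16 positive cells. Each of their intervals included 0. The cause of these shifts was not tested. Of 56 recomputed levels of a gene's highest cluster under other resolutions and component numbers, 46 stayed within their interval and 10 moved. No paired analysis was possible because each condition has 1 library. Leaving out a replicate could not be done for the same reason.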
